A study of Mus musculus with 4 samples.

Results

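The TAM receptors and the ligands that bridge them, or a related integrin receptor, to dying cells were examined in RAW264.7, an established mouse macrophage-like cell line. The members were the probes whose gene name on the array is Axl, Mertk, Tyro3, Gas6, Pros1 or Mfge8. These 6 genes, of 36091 genes or names on the array, were read by 7 of 55681 probes: 1 probe each, and 2 for Tyro3. The series held 4 one-colour Agilent arrays, 1 for each of 4 cultures. By the protocol given for all samples, cells were stably transfected with an artificial-microRNA vector that also carries EmGFP and selected with blasticidin as bulk cultures, either with a scramble vector or with one made to knock down Linc-AAM, a lincRNA (a long non-coding RNA from between genes). Each line was kept for 4 h in DMEM medium alone or with 50 µg/mL of AEPS, a polysaccharide from roots of Actinidia eriantha. The comparisons are therefore AEPS against DMEM within each line, one line against the other within each medium, and the difference between the lines in the response to AEPS. Each group is 1 array, so nothing measures the spread between cultures of a group.

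Axl, Mertk and Tyro3 are receptor tyrosine kinases. Gas6 and protein S, the product of Pros1, are secreted proteins that hold the exposed phosphatidylserine of a dying cell with a vitamin K dependent domain and a TAM receptor with the other end. Gas6 binds all TAM receptors and protein S binds Tyro3 and Mertk, whereas Mfge8 links phosphatidylserine to integrins with the alpha v subunit and is no TAM ligand. In macrophages these proteins serve the uptake of dying cells and restrain responses to interferon and to Toll-like receptors.

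The 7 probes are 60 bases long, and the first 30 bases of each are shown to identify the transcript that was read. All are printed 5′ to 3′ in lower case as the array files hold them.
Axl: ttgagtgtctgagattctaaaggtccacag
Tyro3: gcaggctcttgctgttaggaacatttctaa
Tyro3, other probe: atcaacattgagagagctgagcagcctact
Mertk: agcaccaggtgaaagctgtcaagtcaggtt
Gas6: tgggctagaggggctggcagtttgcagcag
Pros1: atcagagacatcaggttatgctgtaagagg
Mfge8: ctctgggtggttgacaggttggctgtggga
In mm9, the build of the array files, the Axl probe lies at chr7:26542541-26542600 on the minus strand and the Gas6 probe at chr8:13465444-13465503, also on the minus strand. The Tyro3 probes lie at chr2:119643759-119643818 and chr2:119642510-119642569 on the plus strand, and the Mertk probe at chr2:128627867-128627926 on the plus strand. The Pros1 probe lies at chr16:62928674-62928733 on the plus strand and the Mfge8 probe at chr7:86278689-86278748 on the minus strand. The start of the probe within its transcript is base 4002 for Axl, 2463 for Gas6, 3497 for Mertk, 2777 for Pros1 and 2031 for Mfge8, and bases 3907 and 2658 for Tyro3. The share of G and C in a probe ran from 35.0% in the brighter Tyro3 probe to 55.0% in the Mfge8 probe and in the other Tyro3 probe. The exon and the untranslated region in which each probe lies were not analysed here.

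Levels are given as log2 of the processed intensity minus the 75th percentile of the same array, so 0 is that percentile. Levels of different probes have no common scale and are not set against each other. The 4 arrays had 53.4% to 58.0% of their spots well above background, 75th percentiles of 439.1 to 587.7 and 0 saturated spots, and they lay on 1 slide with 1 scan. Probes that are printed 10 times gave a median SD between spots of an array of 0.029 to 0.040 log2 units above an intensity of 500, 0.064 to 0.087 between 50 and 500, and 0.183 to 0.214 below 50. This SD covers spots of 1 array only, and the number of arrays limits the precision of every comparison. Of 8 macrophage marker genes, 7 were well above background on all 4 arrays, Csf1r among them. The exception, Mrc1, was well above background on both AEPS arrays only, where it was at least 2.4-fold higher on scramble and at least 2.32-fold higher on knockdown; a call for it would follow from the filter and is not counted. On all 4 arrays, 2 of 3 dendritic cell, 2 of 4 T cell, 1 of 3 B cell, 1 of 4 fibroblast, 1 of 3 endothelial and 0 of 4 epithelial markers were well above background. Limma called the macrophage marker Cd14, the dendritic cell marker Zbtb46 and the fibroblast markers Col1a1 and Col1a2 higher under AEPS and 0 markers lower, beside 1 lower at an unadjusted p under 0.05. Col1a1 was not well above background on the knockdown array in DMEM. With AEPS, Zbtb46 was 4.35 log2 units higher on scramble and 2.22 on knockdown. Flt3, the other dendritic cell marker above background, changed by 0.21 and -0.45, and Xcr1 was not well above background on any array. The summed signal of the dendritic cell markers, in percent of the array's 75th percentile, was 16.8 in DMEM and 138.3 with AEPS on scramble. On knockdown it was 17.1 and 41.6, and in both lines its rise was mostly that of Zbtb46. The summed signal of the fibroblast markers was 15.2 and 31.5, then 11.7 and 24.3, with Pdgfra not well above background on any. That of the macrophage markers ran from 70745.7 to 79952.6. Because probes have no common scale, a sum mostly follows its brightest probes, and opposite changes can cancel in it. With AEPS, Cd14 was 1.58 log2 units higher on scramble and 1.42 on knockdown, while Csf1r changed by -0.45 and -0.43. Single macrophage markers could differ more than their sum: the AEPS effect on Fcgr1 was -0.11 log2 units on scramble and -1.92 on knockdown. Between the lines limma called 0 macrophage markers. At an unadjusted p under 0.05 it had 1 higher and 3 lower, beside 7.56% and 6.99% of all genes tested. The part of these markers in the AEPS effects and in the line differences was not tested. In bulk RNA, fewer cells of a kind and less RNA per cell cannot be told apart.

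The line labels of the arrays and of the deposited value table disagree. Each column of the value table ranks the probes as the array of the other line in the same medium does, with a rank correlation of 1, against 0.96898 to 0.96900 for the array of its own label. The names used here are those of the scanner files, written as arrays labelled scramble and arrays labelled knockdown. Every difference between lines below has the opposite direction under the labels of the value table, whereas the direction of an AEPS effect does not depend on them. The line to which the size of an AEPS effect belongs does depend on them. Under the labels of the value table the AEPS effect on Axl was 1.69 log2 units on scramble and 3.51 on knockdown. Linc-AAM itself was not analysed here, so nothing checks which label holds.

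Axl, the TAM receptor most tied to inflamed macrophages, had the widest range of the members. Its processed intensity was 97.8 on the array labelled scramble in DMEM and 996.7 with AEPS, and 852.7 on the array labelled knockdown in DMEM and 2886 with AEPS. The corresponding log2 levels were -2.59, 0.97, 0.96 and 2.69. The scramble array in DMEM was thus the lowest and the knockdown array with AEPS the highest. The scramble array with AEPS and the knockdown array in DMEM were nearly level, apart by less than the SD between repeated spots. With AEPS the level was 3.55 log2 units, or 11.7-fold, higher on the arrays labelled scramble and 1.73 units, or 3.31-fold, higher on those labelled knockdown.

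Tyro3, the receptor best known from the nervous system, was dim. Its brighter probe gave intensities of 28.2 and 22.4 on the arrays labelled scramble in DMEM and with AEPS, and 25.7 and 23.8 on those labelled knockdown. The log2 levels were -4.38, -4.51, -4.09 and -4.24, so all 4 arrays lay within 0.41 units. The other Tyro3 probe gave 18.5, 17.7, 16.1 and 11.3 in the same order. It was well above background on both scramble arrays and on neither knockdown array, and on the scramble arrays its log2 level was -4.99 in DMEM and -4.84 with AEPS. The probes therefore differ in the direction of these small differences.

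Mertk, the receptor that is the usual marker of resting tissue macrophages that clear dying cells, was not well above background on any of the 4 arrays. Its intensity was 2.9 and 3.2 on the arrays labelled scramble and 3.6 and 3.3 on those labelled knockdown, in DMEM and with AEPS, with a model error of 95.6% to 100.4% of the value. These are bounds and not levels, so no fold is given and Mertk was not tested.

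Gas6, the ligand of all TAM receptors, was lower with AEPS in both lines and differed more between the lines. Its intensity was 67.7 in DMEM and 37.7 with AEPS on the arrays labelled scramble, and 137.5 and 89.7 on those labelled knockdown. The log2 levels were -3.12, -3.76, -1.68 and -2.32. Both knockdown arrays lay above both scramble arrays, and within each line the AEPS array was the lower. The AEPS array was 1.56-fold lower than the DMEM array in each line, by 0.64 log2 units on scramble and 0.65 on knockdown.

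Pros1, which encodes protein S, had the opposite order of the lines. Its intensity was 562.0 in DMEM and 339.7 with AEPS on the arrays labelled scramble, and 207.0 and 178.1 on those labelled knockdown. The log2 levels were -0.06, -0.59, -1.09 and -1.33, so both scramble arrays lay above both knockdown arrays. The AEPS array was 1.43-fold lower than the DMEM array on scramble and 1.19-fold lower on knockdown.

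Mfge8, the integrin bridge, was bright on all arrays. Its intensity was 29621 in DMEM and 20542 with AEPS on the arrays labelled scramble, and 31725 and 25937 on those labelled knockdown. The log2 levels were 5.66, 5.33, 6.18 and 5.85. Both knockdown arrays again lay above both scramble arrays. The AEPS array was 1.25-fold lower than the DMEM array in each line, a difference of -0.32 log2 units.

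**Figure D1:**
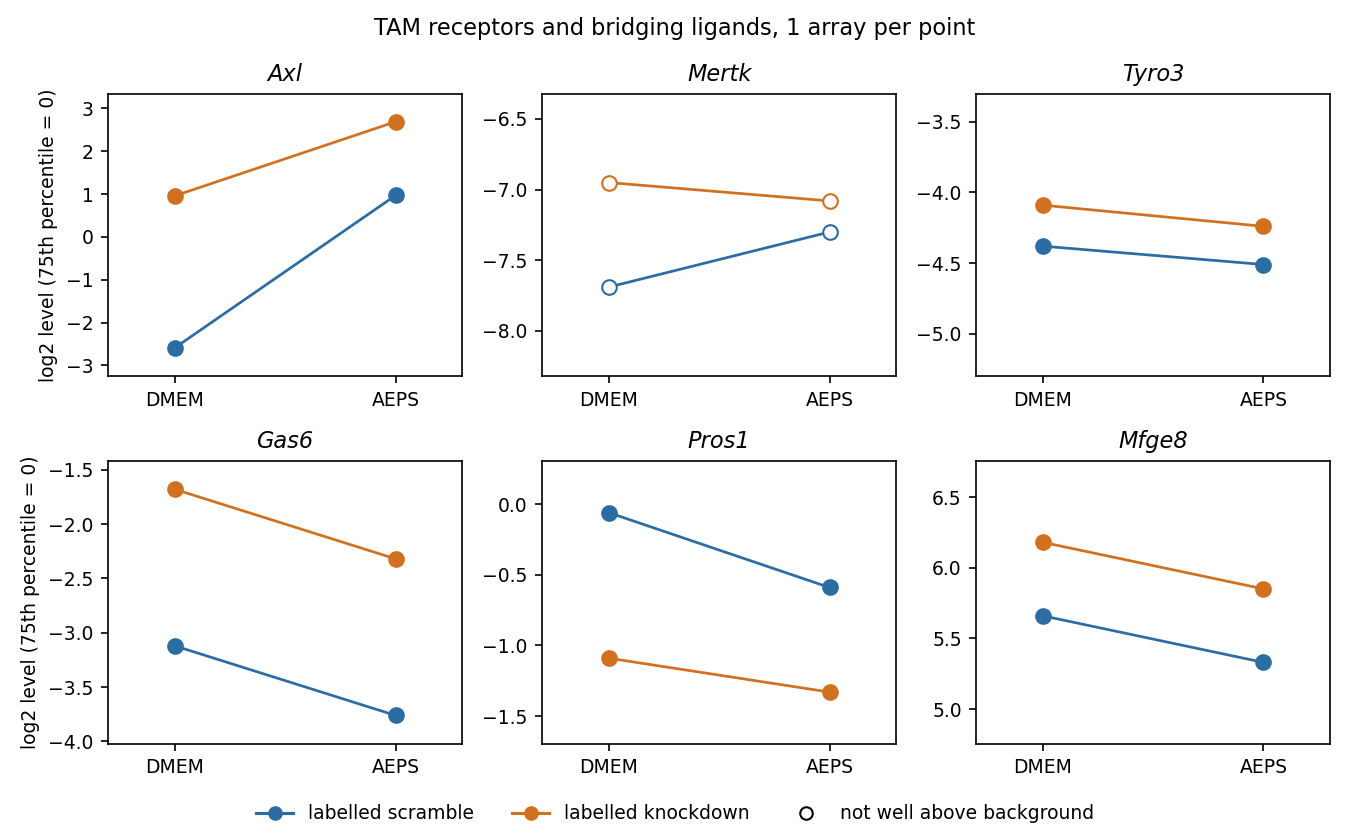
Each panel plots 1 gene's log2 level (75th percentile of the array = 0) in DMEM and with AEPS, 1 array per point, joined within a line; the vertical scales differ between panels, and open points were not well above background. The AEPS point of Axl lies above its DMEM point in both lines, with the knockdown array highest at 2.69, those of Gas6, Pros1 and Mfge8 lie below, and Mertk has open points on all 4 arrays.

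The effect of AEPS over both lines was tested with limma in an additive model of line and treatment, with Benjamini-Hochberg adjustment over 22332 genes. The model has 1 residual degree of freedom, the difference between the lines in the response, and 5 of the 6 members entered it. Each SE also draws on a prior pooled over all genes tested, with 2.82 degrees of freedom. Axl rose by 2.64 ± 0.48 log2 units (SE, n = 4 arrays), 6.24-fold, with an adjusted p of 0.0458 in limma and a 95% confidence interval of 1.28 to 4.00. Gas6 fell by 0.64 ± 0.11 log2 units (SE, n = 4 arrays), with an adjusted p of 0.0432 in limma and an interval of -0.963 to -0.322. In each case both lines moved in that direction. Pros1 (-0.38 ± 0.13, adjusted p = 0.143), Mfge8 (-0.32 ± 0.11, adjusted p = 0.146) and Tyro3 (-0.13 ± 0.11, adjusted p = 0.453) did not pass the same limma test at 0.05. For Pros1 and Mfge8 the unadjusted p-values in limma were 0.0475 and 0.0494. Of the 5 members tested, 1 was called higher, beside 7.39% of all genes tested, and 1 lower, beside 7.27%. The calls of Axl and Gas6 were both lost without the filter on dim genes (adjusted p = 0.136 and 0.21) and with the line left out of the model (0.306 and 0.611); over all alternatives, adjusted p ran from 0.000509 to 0.306 for Axl and from 0.0209 to 0.611 for Gas6. With the normexp background, Gas6 also missed the threshold (-0.35 log2 units, adjusted p = 0.0624) and Mfge8 passed it (-0.36, adjusted p = 0.0459).

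By size alone, with no test, 1 member, Axl, was at least 2-fold higher with AEPS in each line, and 0 were at least 2-fold lower. Among all genes with a measured value or bound, 6.69% were at least 2-fold higher and 5.22% lower on scramble, and 4.64% and 3.49% on knockdown. The response of Axl differed between the lines by -1.83 log2 units, knockdown minus scramble, a ratio of 3.54 between the fold changes. With the normexp background this difference was -1.09, and the response on scramble was 2.79 in place of 3.55 log2 units. It was the 1 member whose response differed at least 2-fold. Over the genes well above background on all 4 arrays, 0.526% had a response at least 2-fold higher and 1.62% at least 2-fold lower on knockdown. The responses of Gas6 and Mfge8 were nearly equal in the lines, with differences of -0.01 and 0.00, and those of Pros1 and Tyro3 differed by 0.27 and -0.02. With the normexp background Gas6 had responses of -0.25 on scramble and -0.46 on knockdown, a difference of -0.21. On scramble with AEPS the Gas6 intensity was 37.7, where repeated spots had an SD of 0.183 to 0.214. With 0 residual degrees of freedom these differences have no test.

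Between the lines, Gas6 and Axl were higher and Pros1 lower on the arrays labelled knockdown. In DMEM, Axl was 11.7-fold higher, Gas6 2.72-fold higher and Pros1 2.03-fold lower, with log2 differences of 3.54, 1.44 and -1.02, or 2.78, 0.98 and -0.82 with the normexp background. Thus 2 members were at least 2-fold higher and 1 at least 2-fold lower, beside 2.36% and 1.5% of all genes with a measured value or bound. Under AEPS, Axl was 3.29-fold higher and Gas6 2.71-fold higher, while Pros1 was 1.68-fold lower and so did not reach 2-fold. The log2 differences were 1.72, 1.44 and -0.75, or 1.70, 0.76 and -0.58 with the normexp background. Here 2 members were at least 2-fold higher and 0 lower, beside 1.85% and 2.68% of all genes with a measured value or bound. Mfge8 was 1.43-fold higher in DMEM and 1.44-fold higher under AEPS, and Tyro3, by its brighter probe, 1.22-fold and 1.2-fold higher. With the mean of all probes the log2 difference of Tyro3 was 0.25 in DMEM and -0.10 under AEPS. The scramble array in DMEM enters both the AEPS effect on scramble and the line difference in DMEM, which are both 11.7-fold for Axl, so these are not separate evidence.

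In the same limma model, Gas6 was the 1 member called between the lines. It was higher on the arrays labelled knockdown by 1.44 ± 0.11 log2 units (SE, n = 4 arrays), 2.71-fold, with an adjusted p of 0.0426 in limma and a 95% confidence interval of 1.12 to 1.76. Of all genes tested, 0.399% were called higher and 0.336% lower, against 1 and 0 of the 5 members. At an unadjusted p under 0.05, limma had 3 members higher (Axl, Gas6 and Mfge8), beside 7.56% of all genes tested, and 1 lower (Pros1), beside 6.99%. Axl had the larger difference, 2.63 ± 0.48, but an adjusted p of 0.155 in limma; its response to AEPS differed between the lines, and that difference is the model's residual. Pros1 (-0.88 ± 0.13, adjusted p = 0.12), Mfge8 (0.52 ± 0.11, adjusted p = 0.197) and Tyro3 (0.28 ± 0.11, adjusted p = 0.396) did not pass in limma. With the normexp background Axl and Pros1 passed (adjusted p = 0.00701 and 0.0277), and with an intensity trend in the prior Axl, Pros1 and Mfge8 passed (0.00238, 0.00736 and 0.00594). Over all alternatives adjusted p ran from 0.00238 to 1 for Axl and from 0.00736 to 1 for Pros1. The adjusted p of Gas6 was 0.0524 with quantile normalization and ran from 0.00186 to 0.991 over the alternatives. With the normexp background the estimate of Gas6 was 0.87 log2 units (adjusted p = 0.0125 in limma). That is below 2-fold and below the interval of 1.12 to 1.76, so the size depends on the background setting.

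**Figure D2:**
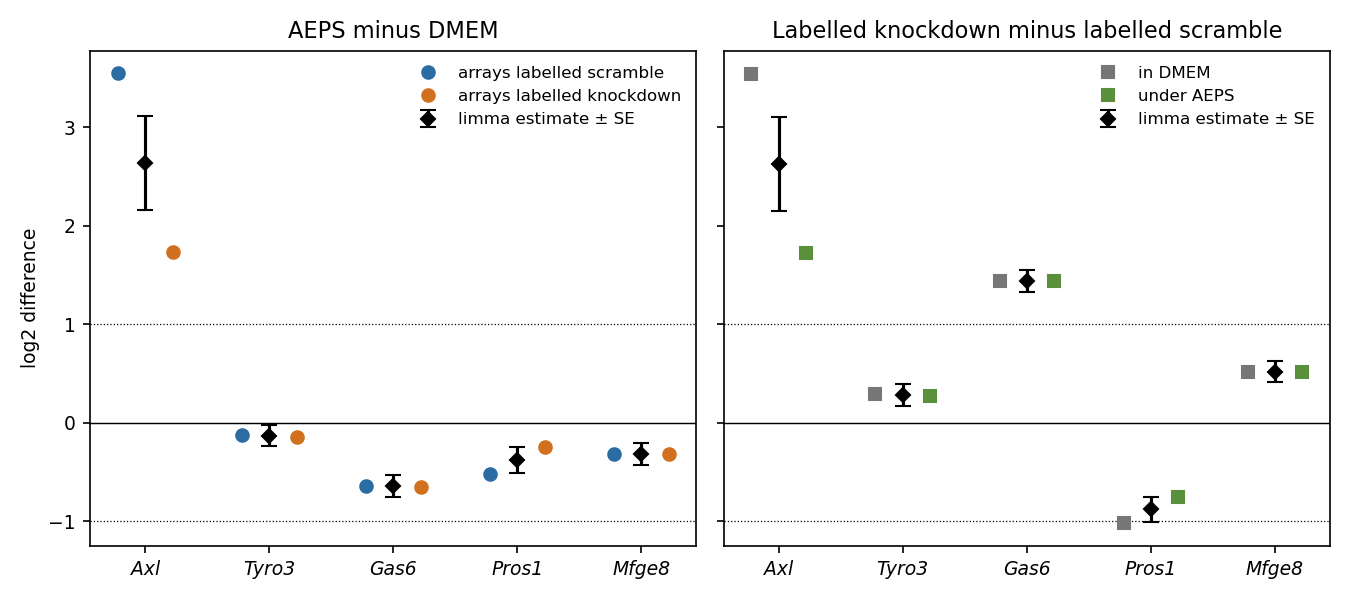
The left panel plots the log2 difference of AEPS minus DMEM in each line, the right panel that of arrays labelled knockdown minus scramble in each medium, for the 5 members that were tested; diamonds and bars are the limma estimate ± SE, and dotted lines mark 2-fold. The coloured points of Gas6 and of Mfge8 coincide within each panel, those of Axl lie 1.83 units apart, and Pros1 is the 1 member below 0 in the right panel.

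The genes that work beside these members were taken from 9 lists with 61 genes, of which 48 were tested. Limma called 7 of them higher with AEPS and 5 lower, beside 7.39% and 7.27% of all genes tested. These shares also stand beside the AEPS calls of each list below. The median estimate of the 48 was -0.04 log2 units against 0.07 over all genes tested. Without the filter on dim genes limma called 1 of them (Socs3), and with the line left out 6. Between the lines limma called 0 higher and 1 lower, beside 0.399% and 0.336% of all genes tested. The 1 lower, Cd24a, entered the test only through the line in which it is high, so its call is not counted. At an unadjusted p under 0.05, limma had 2 higher and 6 lower, beside 7.56% and 6.99% of all genes tested. All adjusted p-values in the following paragraphs are from this limma fit.

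Of 12 other phosphatidylserine receptors, 6 were tested, with a median AEPS estimate of 0.10. Cd300lf, an inhibitory receptor of myeloid cells, rose 2.34-fold (1.23 ± 0.21, adjusted p = 0.0415), the 1 call in the list. Stab1, a scavenger receptor, had an estimate of 0.19 and Cd36, a receptor for oxidised lipids, 0.02, with adjusted p of 0.323 and 0.933. Timd4, the receptor of resident macrophages, was not well above background on any array. Of 9 other bridging molecules and opsonins, 5 were tested, and limma called 0 in either direction, also at an unadjusted p under 0.05; the list median was 0.31. Edil3, a relative of Mfge8 with the same integrin-binding use, had an estimate of 0.31 (adjusted p = 0.164), and Lgals3, which encodes the lectin galectin, -0.12 (adjusted p = 0.531). Thbs1 and C1qa were not well above background on any array. Edil3 stood 1.07 ± 0.12 log2 units higher on the arrays labelled knockdown and missed the threshold (adjusted p = 0.0792, and 0.0029 to 0.831 over the alternatives).

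The integrin subunits through which Mfge8 acts went apart. Itgav, the shared alpha v subunit, rose 2.52-fold with AEPS (1.33 ± 0.13, adjusted p = 0.0172). Itgb5, a beta partner, fell by 0.92 ± 0.15 log2 units (adjusted p = 0.038), with differences of -1.11 on scramble and -0.72 on knockdown. Itgb3, another beta partner, was well above background on 1 of the 4 arrays, knockdown with AEPS, and was not tested. Of 3 genes of the vitamin K dependent carboxylation that Gas6 and protein S need, limma called 0 in either direction, also at an unadjusted p under 0.05. The carboxylase gene Ggcx had an estimate of -0.32 (adjusted p = 0.154) and the reductase gene Vkorc1 -0.23 (adjusted p = 0.241).

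Axl and Mertk are cut from the cell surface by the proteases Adam10 and Adam17. With AEPS, Adam17 had an estimate of 0.57 (adjusted p = 0.0533) and Adam10 -0.51 (adjusted p = 0.0637), both short of the threshold. The list's 1 call among 4 genes was Rhbdf2, which encodes a partner that matures ADAM17; it rose 4.83-fold (2.27 ± 0.22, adjusted p = 0.016) and is named after its value was seen. Of 12 genes of the engulfment machinery, limma called 0 higher (1 at an unadjusted p under 0.05) and 2 lower. The genes that fell, named after their values were seen, were Vav1, a guanine nucleotide exchange factor (-1.13 ± 0.11, adjusted p = 0.0175), and Elmo2, a Dock partner (-0.87 ± 0.13, adjusted p = 0.0313). Elmo1 (-0.34), Dock1 (-0.25) and Rac1 (0.10) did not pass, with adjusted p of 0.203, 0.216 and 0.556.

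Among 7 nuclear receptors tied to uptake genes, limma called 1 higher and 0 lower, beside 3 lower at an unadjusted p under 0.05. Rxra, the partner of the liver X and PPAR receptors, rose 2.15-fold (1.1 ± 0.18, adjusted p = 0.0394) but was not well above background on the knockdown array in DMEM. Its estimate was 0.44 with the normexp background (adjusted p = 0.0236) and 0.50 with the mean of all probes (adjusted p = 0.0974), and the call was also lost with quantile normalization (0.0544), without the filter (0.148) and with the line left out (0.0588). Nr1h3, a liver X receptor gene, had an estimate of 0.63 and Pparg -0.50, with adjusted p of 0.0908 and 0.0694.

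TAM receptors act together with the type I interferon receptor to raise the SOCS proteins, which curb cytokine signalling. Socs3 rose 31-fold with AEPS (4.95 ± 0.19, adjusted p = 0.00712), from 2.27 to 7.52 on scramble and from 2.22 to 6.88 on knockdown. Socs1 rose 11.9-fold (3.57 ± 0.30, adjusted p = 0.0135). Both arrays with AEPS lay above both arrays in DMEM for each gene. Whether TAM receptors had a part in the rise of Socs3 and Socs1 was not tested. Ifnar1, a subunit of the interferon receptor, had an estimate of 0.12 (adjusted p = 0.482). Twist1, a repressor reported downstream of Axl, was not well above background on any array. The list's 1 lower call was Pik3r1, a PI3-kinase subunit gene named after its value was seen (-0.84 ± 0.15, adjusted p = 0.0465).

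The inhibitory pair that tells a macrophage not to take up a cell went apart. Cd47, the signal, rose 2.24-fold with AEPS (1.16 ± 0.13, adjusted p = 0.02), and Sirpa, its receptor, fell by 1.66 ± 0.22 log2 units (adjusted p = 0.0256). The 1 gene of all 9 lists called between the lines was Cd24a, which encodes a surface glycoprotein that also restrains uptake. It was well above background on the scramble arrays alone. It therefore entered the test only through the line in which it is high, and its call is not counted as a result. It was at least 5.5-fold lower on the array labelled knockdown in DMEM and at least 2.79-fold lower under AEPS. The limma estimate was -2.71 log2 units (adjusted p = 0.0309). With the normexp background the estimate was -0.73 and missed the threshold (adjusted p = 0.0501), as it did without the filter (0.18) and with treatment left out (0.589). Sirpa and Cd24a are named after their values were seen.

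**Figure D3:**
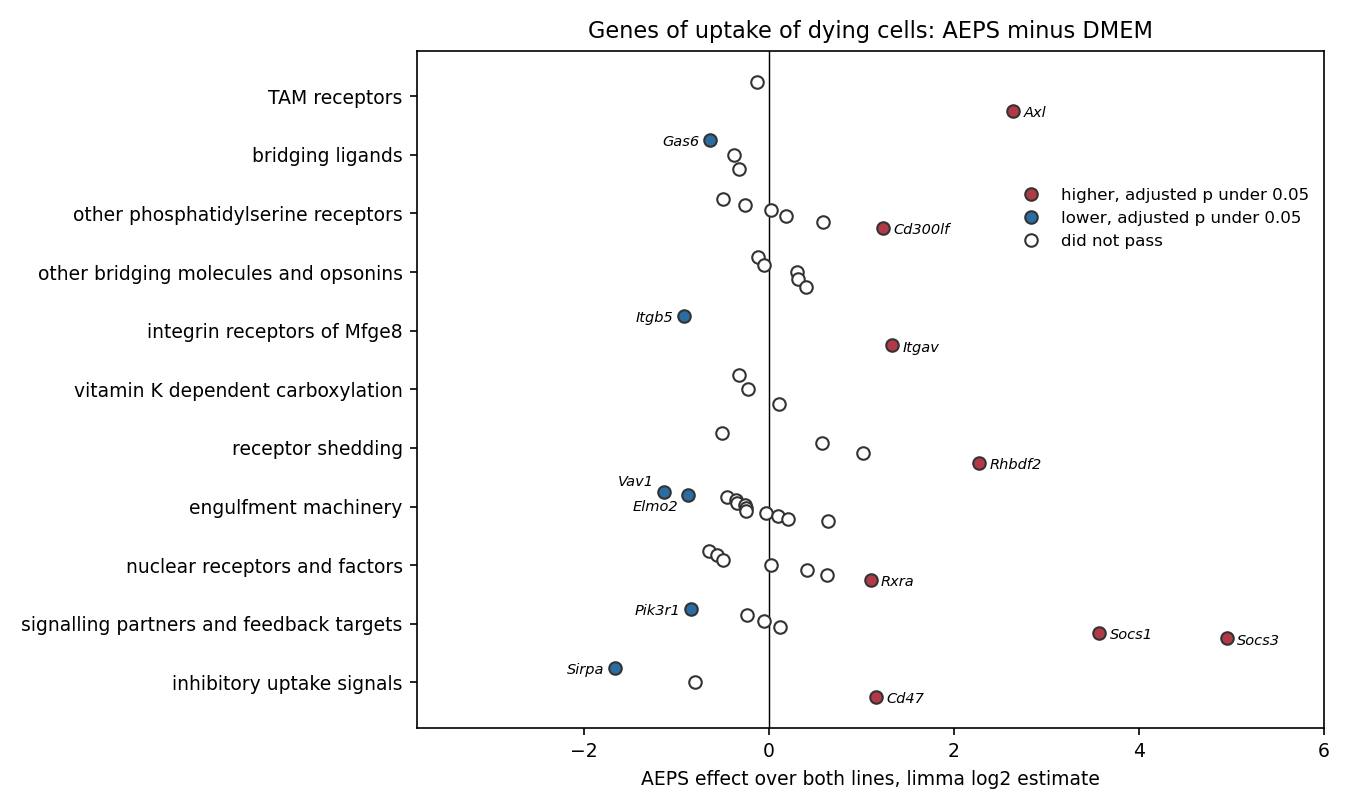
Each point is 1 tested gene, placed by its limma estimate of the AEPS effect over both lines in log2 units and by its list; filled points passed an adjusted p of 0.05 and carry their names. Axl lies at 2.64 and Gas6 at -0.64. The other 48 tested genes hold 7 filled points to the right of 0 and 5 to the left, beside 7.39% and 7.27% of all genes tested.

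To see which genes share a member's pattern, each gene was centred on its mean of the 4 arrays and set against the member by the root mean square difference, over 13187 genes with an official-style symbol that were well above background on all 4 arrays. For Axl, whose levels span 5.27 log2 units, the nearest were Slc6a4, a serotonin transporter gene, at 0.253, Serpinb6b at 0.368 and Mustn1 at 0.485, and 0 genes lay within 0.1. Slc6a4 had log2 levels of -2.69, 0.51, 0.49 and 1.86 in the order of arrays used above, with the middle arrays level as for Axl. For Gas6, which spans 2.08 units, the nearest were Lair1, an inhibitory collagen receptor gene, at 0.085, Nr4a2 at 0.124 and Timp2 at 0.125, and 1 gene lay within 0.1. Pros1 had 7 genes within 0.1, led by Tm6sf1 at 0.042, B3galnt1 at 0.043 and Radx at 0.080. Mfge8 had 89, led by Gm11564 at 0.028, Car5b at 0.033 and Zfp740 at 0.039. Tyro3, which spans 0.41 units, had 585, led by Tgfb1i1 at 0.012, Phkg1 at 0.013 and Scn4a at 0.013. The number within 0.1 grows as the member's own range narrows. With 4 arrays, likeness is a description of these arrays.

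**Figure D4:**
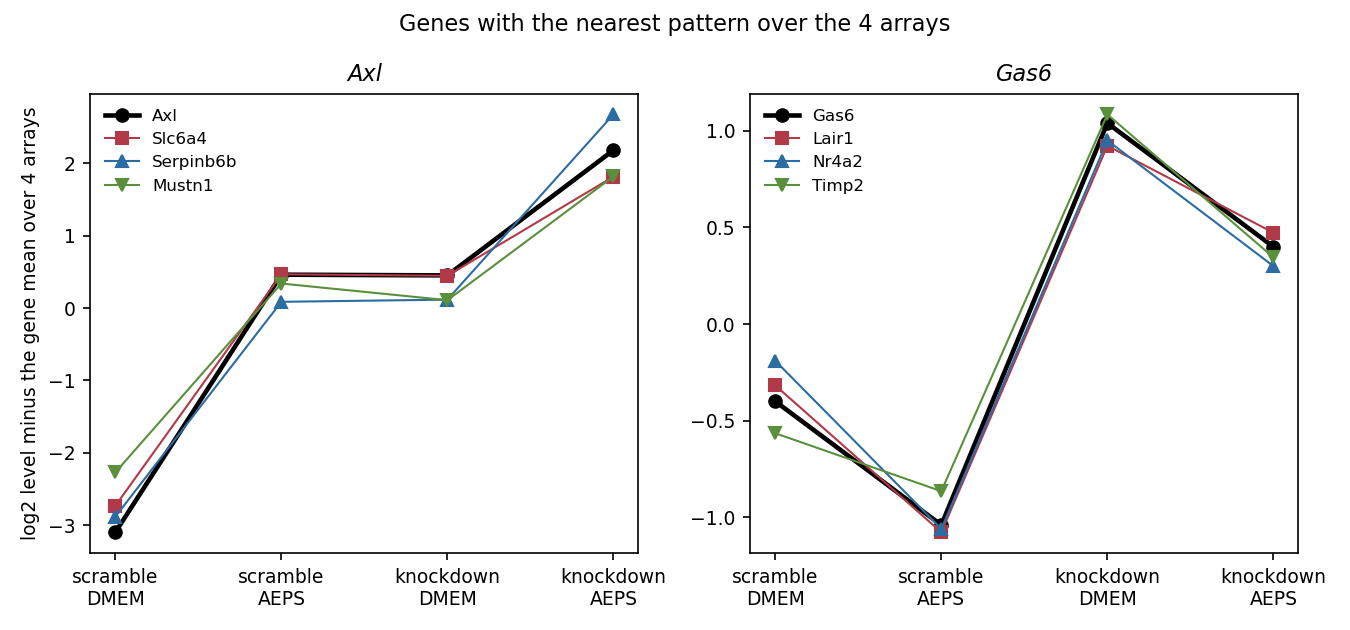
The lines plot log2 level minus the gene's mean over the 4 arrays, 1 array per point and named by the labels of the scanner files, for Axl and Gas6 (black) and the 3 nearest genes of each. The Axl group is lowest on scramble in DMEM and highest on knockdown with AEPS, and the Gas6 group is highest on knockdown in DMEM and lowest on scramble with AEPS.

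The promoters of the 2 members called for the AEPS effect, 1 higher and 1 lower, are shown so that their sequence can be read beside their opposite changes. They are the 250 bases before the start of the gene in RefSeq on GRCm38.p6, 5′ to 3′ on the gene's strand, with GC boxes (GGGCGG or its reverse complement CCGCCC) in capitals.
Axl, chr7:25788734-25788983, minus strand: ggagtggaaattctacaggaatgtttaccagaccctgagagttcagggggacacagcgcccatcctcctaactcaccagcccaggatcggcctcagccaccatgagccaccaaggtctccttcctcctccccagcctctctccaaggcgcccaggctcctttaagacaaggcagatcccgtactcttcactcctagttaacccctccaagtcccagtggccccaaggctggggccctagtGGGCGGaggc
Gas6, chr8:13494536-13494785, minus strand: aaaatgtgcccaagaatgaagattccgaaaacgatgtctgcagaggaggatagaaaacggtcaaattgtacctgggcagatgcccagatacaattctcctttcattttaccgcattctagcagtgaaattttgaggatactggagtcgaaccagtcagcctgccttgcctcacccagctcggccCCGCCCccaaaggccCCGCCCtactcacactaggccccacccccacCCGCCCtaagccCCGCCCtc
All 6 members had an entry among 32851 RefSeq promoters of 300 bases, 250 before the start and 50 after it. On both strands, GC boxes numbered 2 for Axl, 4 for Gas6, 4 for Mertk, 6 for Tyro3, 5 for Pros1 and 4 for Mfge8, and 35.7% of all promoters held 1 or more. The motif of the interferon-stimulated response element (GAAA, any 2 bases, GAAA), held by 3.4% of all promoters, and the AP-1 motif (TGANTCA), held by 7.8%, were in 0 of the 6. The GAS motif (TTCNNNGAA), held by 8.3%, was in Pros1 alone, with its first base at -92 from the start. The NF-kB motif, held by 8.5%, was in Tyro3 alone at -232, and the TATA box (TATAAA), held by 13.6%, was in 0 of the 6. The motifs were searched one by one, and matches of different motifs could overlap.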

How the data were processed

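Total RNA of 4 RAW264.7 cultures was labelled with Cy3 and hybridised to 4 one-colour Agilent mouse arrays, 1 per group, per the labels' protocols. The authors deposited scanner files with a spot intensity on a linear scale, and per the file headers Agilent Feature Extraction 10.7.1.1 made them. In the processed intensity, per the file headers, local background was subtracted, a trend across the array was removed and dim spots were given surrogates, without any scaling that joins the arrays. Marks for outlier, saturated and well-above-background spots come with it. The deposited table of log2 values is the authors' own, and the steps behind it are not given in the sources used here. Its columns share 1 distribution with a median of 4.70, and the log2 scale was taken from the match with the scanner values. It has no stated centring.

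Control spots and outlier spots (164 to 231 per array) were left out, spots of a probe were averaged, and the array's 75th percentile of log2 processed intensity was subtracted. A gene took its brightest probe. Names were updated through a RefSeq table, 26687 probes through their accession, 2536 through the symbol and 474 through a synonym; the other 25984 kept the array's name. Limma 3.58.1 (lmFit and eBayes, in R 4.3.3) fitted line plus treatment to 22332 genes, those well above background on at least 2 arrays. P-values were adjusted by Benjamini-Hochberg and called at 0.05. The residual has 1 degree of freedom, the prior 2.82 with a prior SD of 0.132. Pairs of arrays were compared by a 2-fold rule, with a bound where 1 array was not well above background. With no label that gives separate cultures of a group, a p-value does not measure a spread between cultures. It rests on the difference between the lines in the response and on the prior, which pools all genes tested. The fit was tested on simulated data.

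The members, the lists and the alternatives were chosen with earlier results of these data known. The genes named are all 6 members, 26 genes fixed from the lists whatever their values (some list genes are not reported here), and the 3 genes nearest to each member in pattern; others are marked where they occur. Alternatives were the normexp background (offset 50), quantile normalization, the value table, the mean of a gene's probes, no filter or a filter on all 4 arrays, an intensity trend in the prior, and the other factor left out.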

Additional observations from a re-analysis of the deposited data

Results flagged for a closer look

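Among the members and the uptake genes named in the report that were well above background on all 4 arrays, 8 had differences of opposite sign in the lines or the media, and none of these contrasts was tested. The line difference of Cd300lf, knockdown minus scramble by the scanner files' labels, was 0.36 log2 units in DMEM and -0.34 under AEPS, a change of -0.70. The AEPS effect on Cd36 was -0.06 on scramble and 0.09 on knockdown, a difference of 0.16. The line difference of Lgals3 was 0.06 in DMEM and -0.10 under AEPS, a change of -0.16. That of Itgav was -0.20 in DMEM and 0.08 under AEPS, a change of 0.27. That of Pparg was -0.04 and 0.06, a change of 0.10. That of Rhbdf2 was 0.12 and -0.60, a change of -0.72, that of Pik3r1 -0.32 and 0.09, a change of 0.41, and that of Sirpa -0.46 and 0.26, a change of 0.72. Among the 5 members well above background on all 4 arrays, 0 showed such opposite signs. The share of all genes with such signs was not counted, so neither count can be read as a trait of these genes.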

How the results depend on the processing

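The additive model compares AEPS and DMEM within a line, and the lines within a medium. No pairing by replicate was possible because each group holds 1 array and the groups share replicate number 1 alone. Leaving out an array leaves no residual degree of freedom in the additive model, so no such setting was run. The count of members called for AEPS in limma went from 2 to 0 without the filter on dim genes (2 at an unadjusted p under 0.05) and to 0 with the line left out (0 at an unadjusted p under 0.05). The count called between the lines went from 1 to 3 with the normexp background and 4 with an intensity trend. It went to 0 with quantile normalization, 0 with the value table and 0 without the filter (4 at an unadjusted p under 0.05 each), and to 0 with treatment left out (2 at an unadjusted p under 0.05). With the normexp background, members at least 2-fold apart between the lines went from 3 to 1 in DMEM and from 2 to 1 under AEPS. The cause was not tested for the background, quantile and trend settings.

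Under the value table's own labels, the line differences reversed. Over both media, Axl was at -2.61, Pros1 at 0.91, Mfge8 at -0.59 and Tyro3 at -0.24, none of them called. Gas6 was at -1.41 over both media (adjusted p = 0.0526 in limma), -1.37 in DMEM and -1.45 under AEPS. Axl was at -3.52 in DMEM and -1.71 under AEPS, Pros1 at 1.03 in DMEM, and the difference in the response of Axl at 1.81. Cd24a, whose call is not counted, reversed to 2.72 (adjusted p = 0.037 in limma) and Edil3 to -1.04. Which labels hold was not tested.

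Of the other values of the members, 127 kept the direction and side of the threshold of their test or, without a test, moved by less than the spot error. A further 26 moved by more, 7 passed and 8 lost the threshold, and Tyro3 turned from -0.13 for AEPS over both lines to 0.01 with normexp. Among the 26, the line difference of Tyro3 under AEPS turned from 0.27 to -0.10 with the mean of all probes. The same alternatives were added for the list genes after the data were seen. For AEPS, Cd36 turned to -0.12 and Rac1 to -0.07 with quantile normalization and with the value table, and Edil3 to -0.11 with the mean of all probes. There, 12 genes called for AEPS became 21 with normexp, 19 with the filter on all 4 arrays and 23 with the trend. They became 1 without a filter and 6 with the line left out. Quantile normalization moved the median AEPS effect of all genes tested from 0.07 to -0.02. Dim probes (Tyro3, Mertk, and Gas6 on scramble with AEPS) limit what these arrays can show.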
